A study of Mus musculus with 8 samples.

Results

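Zbp1 and 6 genes of the death machinery around it (Ripk1, Ripk3, Mlkl, Casp8, Fadd and Cflar) were read in bulk RNA sequencing libraries of primary fibroblasts from mouse embryos (MEFs), the mixed connective tissue cells that grow out of dissociated embryos. They were taken by name from a table of 24972 genes, and all 7 passed the filter on low values, a mean of at least 10 over all libraries, that left 13267 genes for testing. There were 8 libraries in 4 genotypes, 2 per genotype. The genotypes were wild type (WT), Tfam+/-, Zbp1-/- and Tfam+/-Zbp1-/-, the last carrying both alleles. All cells came from embryos at embryonic day 14, were passaged 2 times in DMEM with 10% FBS and received no treatment. Whether the replicates of each genotype were different embryos the labels leave unsaid, so p-values measure only the spread between these libraries, which may be technical. Nor do they say which part of Zbp1 the Zbp1-/- allele removes.

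ZBP1 is a sensor that binds nucleic acid in the left-handed Z form through its Z-binding domains and is itself made in response to interferon. It carries RHIM motifs, short stretches through which it assembles with the kinases RIPK1 and RIPK3, and RIPK3 then phosphorylates the pseudokinase MLKL, which breaks the plasma membrane (necroptosis). FADD, caspase-8 and cFLIP, the product of Cflar, join the same complexes: caspase-8 can kill by apoptosis or, paired with cFLIP, cleave RIPK1 and RIPK3 and hold necroptosis back. TFAM packages mitochondrial DNA, and cells with 1 working copy of Tfam are a known model of mitochondrial DNA stress and release. The comparisons here ask how the RNA of these genes differs when Tfam is heterozygous, and whether it still differs when Zbp1 is also missing.

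In the RefSeq annotation of GRCm38.p6, Zbp1 lies at chr2:173206612-173218959 on the minus strand. Ripk1 lies at chr13:34002225-34035170 (plus), Ripk3 at chr14:55784995-55788857 (minus), Mlkl at chr8:111311255-111338479 (minus) and Fadd at chr7:144578323-144582441 (minus). Cflar, at chr1:58711311-58758884, and Casp8, at chr1:58795233-58847503, lie on the plus strand 36.3 kb apart, with 1 gene, Gm39646, between them. Ripk1 shares 570 bases with Serpinb6a, and the whole of Ripk3 lies in the long noncoding gene Gm32092. The sources used here do not say whether the authors' counting used strand, so reads of these overlaps cannot be assigned with certainty.

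Mlkl was the only member besides Zbp1 that was called in a comparison of genotypes over all 8 libraries with no added term, and the 2 genes whose pattern was most like that of Mlkl were the interferon-induced Irgm1 and Bst2. Their promoters are therefore shown beside that of Mlkl, together with the promoter of Casp8. Of the member windows found, only that of Casp8 held a GAAA repeat, a match to GAAANGAAA, and none held GAAANNGAAA. No promoter was found for Zbp1. Each is the 250 bases before a RefSeq start site (GRCm38.p6), 5′ to 3′ on the gene's strand. Capitals mark matches to GAAANNGAAA, GAAANGAAA or TTCNNNGAA on either strand, where N is any base.

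Mlkl, chr8:111338206-111338455, minus: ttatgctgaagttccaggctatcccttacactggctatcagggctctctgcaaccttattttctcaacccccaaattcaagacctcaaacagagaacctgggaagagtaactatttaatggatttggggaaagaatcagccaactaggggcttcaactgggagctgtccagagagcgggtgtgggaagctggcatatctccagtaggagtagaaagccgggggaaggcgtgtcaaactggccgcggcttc

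Casp8, chr1:58802252-58802501, plus: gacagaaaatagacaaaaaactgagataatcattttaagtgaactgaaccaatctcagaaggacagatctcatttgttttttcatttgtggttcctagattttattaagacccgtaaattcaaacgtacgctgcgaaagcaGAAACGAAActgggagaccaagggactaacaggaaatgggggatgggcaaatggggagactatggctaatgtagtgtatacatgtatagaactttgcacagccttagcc

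Irgm1, chr11:48871421-48871670, minus: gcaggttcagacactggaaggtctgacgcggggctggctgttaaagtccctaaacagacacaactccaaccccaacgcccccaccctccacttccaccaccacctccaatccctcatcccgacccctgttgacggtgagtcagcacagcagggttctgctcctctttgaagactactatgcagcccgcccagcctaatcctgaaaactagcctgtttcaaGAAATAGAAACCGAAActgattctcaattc

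Bst2, chr8:71537473-71537722, minus: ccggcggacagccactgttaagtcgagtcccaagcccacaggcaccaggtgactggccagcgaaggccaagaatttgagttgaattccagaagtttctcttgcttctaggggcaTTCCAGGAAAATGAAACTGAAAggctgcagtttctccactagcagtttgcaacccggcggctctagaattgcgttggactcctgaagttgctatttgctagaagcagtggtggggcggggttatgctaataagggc

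The Mlkl window held none of these 3 motifs. It lies wholly inside the gene's annotated span, so the bases before the outermost Mlkl start were not searched. The Casp8 window, which also stands before a start inside the gene's span, held 1 GAAACGAAA, 109 bases before the start. Irgm1 held 2 overlapping matches to GAAANNGAAA, GAAATAGAAA at 30 and GAAACCGAAA at 24 bases before its start. Bst2 held 2 as well, GAAAATGAAA at 130 and GAAACTGAAA at 124 bases before, and the first of these overlaps a TTCNNNGAA match. The windows of the third closest gene to Mlkl, Helz2, and of 2 of the 3 closest to Zbp1, Slfn2 and Map2k1, held none of the 3 motifs, while both Slfn8 windows held 1 GAAANNGAAA. Of all 32851 promoter windows of this length, 2.98% held GAAANNGAAA, 2.68% held GAAANGAAA and 7.02% held TTCNNNGAA, the letters of a STAT site. A second Ripk1 promoter held 2 TTCNNNGAA matches, at 108 and 11 bases before its start. Promoters were found for 6 of the 7 members (7 windows, since Ripk1 had 2). Zbp1 was the member without one, so it was not searched for motifs. The Fadd, Ripk3 and Cflar windows held none of the 3 motifs. These are matches of letters, not measured binding.

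Levels are the authors' normalized counts, and differences are log2 ratios of normalized count + 1 with their standard error (SE) from a limma fit over all 8 libraries. A gene was called when its Benjamini-Hochberg adjusted p over the 13267 tested genes was under 0.05, in two-sided tests. The libraries held 16752835 to 18303036 normalized counts each. Tfam itself stood at 619 ± 13.1 (SD, n = 2) in WT and 321 ± 61.4 in Tfam+/-, at 573 ± 144 in Zbp1-/- and 399 ± 34.8 in Tfam+/-Zbp1-/-. The difference between Tfam+/- and WT was -0.96 ± 0.21 on the log2 scale (limma adjusted p = 0.163). The libraries Tfam+/- replicate 1 and Zbp1-/- replicate 2 stood apart from the others in the same way across many genes. The main results are therefore also given from the other 6 libraries, or from a fit with 1 extra term shared by that pair (the shared term). The 10 fibroblast markers summed to 500519 to 737087 normalized counts per library and none was at 0. Of the endothelial markers, Pecam1 and Cdh5 were under 10 in every library, but Kdr (148 to 332) and Tek (25.1 to 89.4) were not. Of the epithelial markers, Epcam and Cdh1 were under 10 throughout, but Krt8 (55.1 to 169) and Krt18 (57.0 to 230) were not. Of the leukocyte markers, Cd3e was at 0 in every library, but Ptprc (49.9 to 169), Csf1r (237 to 702) and Adgre1 (144 to 339) were not, so RNA of leukocyte markers was present in all cultures. In such bulk RNA, fewer cells of a type and less RNA per cell cannot be told apart.

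Per kilobase of the longest coding transcript in GENCODE M21, the mean WT level of Ripk3 was the highest of the 7, at 651 normalized counts per kb. Casp8 followed at 299, Cflar at 239, Ripk1 at 204, Mlkl at 121 and Fadd at 54.0, and Zbp1 was far lower at 2.65. Untreated WT fibroblasts therefore held abundant RNA of the kinases and of the caspase-8 arm, with very little Zbp1. In Tfam+/- the mean level of Zbp1 per kb was 33.8, still below the 61.9 of Fadd.

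Zbp1 was the member that varied most. It read 7.34 and 3.19 normalized counts (WT), 64.6 and 69.8 (Tfam+/-), 3.79 and 1.03 (Zbp1-/-), and 0.862 and 2.69 (Tfam+/-Zbp1-/-). Its mean was 67.2 in Tfam+/-, against 5.26 (WT), 2.41 (Zbp1-/-) and 1.77 (Tfam+/-Zbp1-/-). Zbp1 thus passed the filter on low values, a mean of at least 10, only through the Tfam+/- libraries, and every test of it rests on that selection. Both Tfam+/- libraries were far above all 6 others, which overlapped each other in part; 23.3% of all tested genes had both Tfam+/- libraries above both WT libraries. The difference between Tfam+/- and WT was 3.53 ± 0.60 (SE) on the log2 scale, with an adjusted p of 0.0763 in limma, which missed the threshold. It depended on the value added before taking logs, the WT level being low: it was 2.84 with 5 added (adjusted p = 0.0156) and 3.77 with 0.1 added (adjusted p = 0.166). In the other 6 libraries the limma difference was 3.58 (adjusted p = 0.0017), and with the shared term 3.87 (adjusted p = 3.2e-04).

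Zbp1 is also the gene deleted in the other mutants, so its level there was read beside the labels. WT cells gave so little that the loss in Zbp1-/- could not be seen against them (log2 difference -0.92 ± 0.60, limma adjusted p = 0.40). Against Tfam+/-, the level in Tfam+/-Zbp1-/- fell by 4.70 ± 0.60 on the log2 scale (adjusted p = 0.0079 in limma). Leaving out either Tfam+/-Zbp1-/- library took the adjusted p to 0.083 or 0.0654, with differences of -4.21 and -5.19. The gene is deleted in Tfam+/-Zbp1-/-, so this difference is not read as regulation of Zbp1. It does not check the labels either, since a WT library with the gene intact read as low as 3.19. Interferon-stimulated genes were also lower in Tfam+/-Zbp1-/-, and the deletion and a lower interferon response cannot be told apart in this contrast.

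**Figure D1:**
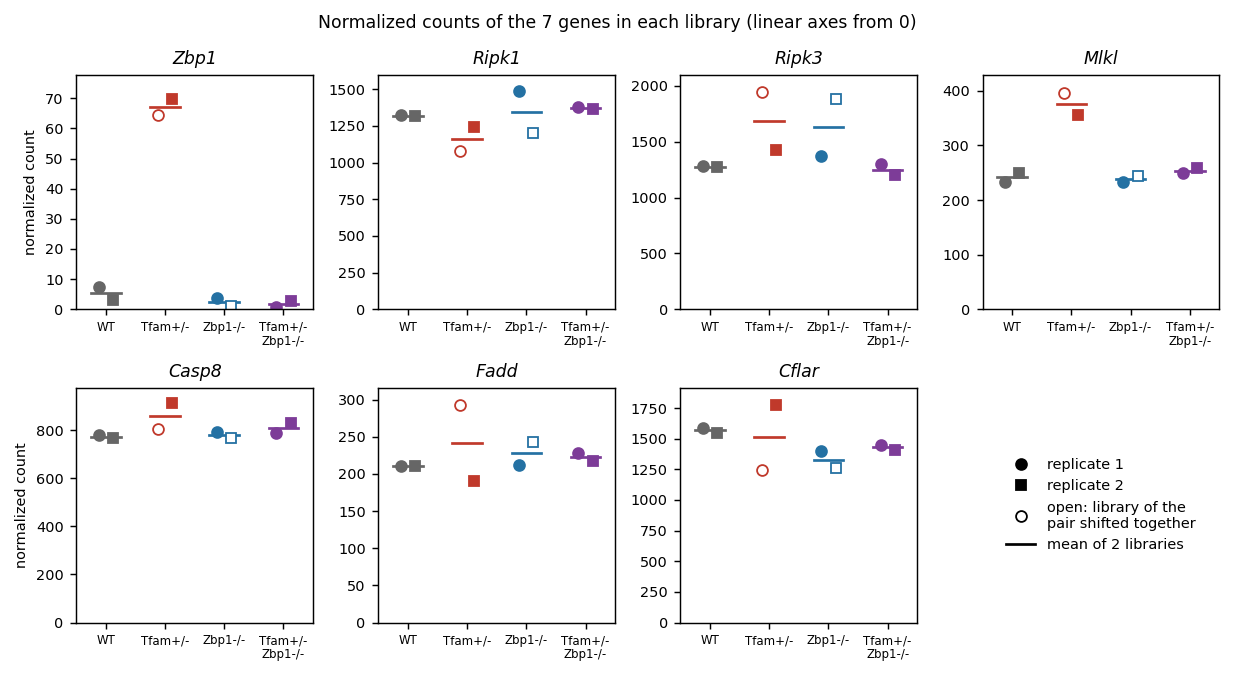
Normalized counts of the 7 genes in each library, by genotype, on linear axes from 0. Circles are replicate 1, squares replicate 2, bars the mean of 2 libraries, and open symbols the pair of libraries that stood apart together; Zbp1 and Mlkl were highest in both Tfam+/- libraries, whereas the open symbols of Ripk3 lay together at 1942 and 1882.

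Mlkl, the gene of the membrane-breaking effector, was highest in the 2 Tfam+/- libraries and lower in Tfam+/- cells that also lacked Zbp1. It stood at 234 and 250 normalized counts in WT libraries, against 396 and 356 in Tfam+/- libraries. Without Zbp1 it read 233 and 243 on the wild-type Tfam background and 250 and 258 with Tfam heterozygous. The 2 Tfam+/- libraries were above the 6 others, which lay together between 233 and 258. For 13.5% of all tested genes both Tfam+/-Zbp1-/- libraries were below both Tfam+/- libraries, and for 23.3% both Tfam+/- libraries were above both WT libraries. The share with both Tfam+/- libraries above all 6 others was not computed. Tfam+/-Zbp1-/- was thus at 0.677 of the Tfam+/- level, a log2 difference of -0.56 ± 0.12 (95% interval -0.85 to -0.28), which passed the test (limma adjusted p = 0.0452). The difference of Tfam+/- from WT was 0.63 ± 0.12 (95% interval 0.35 to 0.92), or 1.55-fold, and missed it (adjusted p = 0.107).

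The Mlkl call was close to the threshold. Leaving out any 1 of the 8 libraries ended it, with log2 differences between -0.64 and -0.48 and limma adjusted p from 0.0503 to 0.326. It was also lost with no filter on low values (adjusted p = 0.0685) and with only the 2 genotypes in the fit (adjusted p = 0.168). The median of all tested genes in this comparison was 0.14, and rescaling the libraries by a trimmed mean (TMM) took it to 0.011 and the Mlkl difference to -0.69 (adjusted p = 0.0243). In the other 6 libraries, by contrast, both differences were called: 0.55 for Tfam+/- against WT (adjusted p = 0.0017) and -0.48 for Tfam+/-Zbp1-/- against Tfam+/- (adjusted p = 0.0017). With the shared term they were 0.58 (adjusted p = 3.46e-04) and -0.51 (adjusted p = 3.59e-04). The interaction, which is the Tfam+/- effect in Zbp1-/- cells minus that in cells with Zbp1, was -0.54 ± 0.17 for Mlkl (adjusted p = 0.242 in limma, and 0.0588 with the shared term). The test of whether the Tfam+/- effect on Mlkl differs with Zbp1 genotype thus missed the threshold in both fits.

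Interferon-stimulated genes moved in the same libraries. Of 24 such reference genes, 22 were called higher in Tfam+/- against WT and all 24 were above 0 (median log2 difference 2.63, against -0.01 over all tested genes, of which 0.565% were called higher). Against Tfam+/-, 21 were called lower in Tfam+/-Zbp1-/- and all 24 were below 0 (median -1.84, against 0.14, with 2.32% of all genes called lower). All 24 were called in both comparisons with the shared term, and also in the other 6 libraries. These 2 fits called 15.6% and 15.4% of all genes in Tfam+/- against WT. In Tfam+/-Zbp1-/- against Tfam+/- they called 45.6% and 43.6%. Their mean log2 level was 6.64 and 6.68 (WT), 9.22 and 9.35 (Tfam+/-), 7.04 and 7.04 (Zbp1-/-), and 7.42 and 7.53 (Tfam+/-Zbp1-/-). The mean of the interferon list in Tfam+/-Zbp1-/- was above that in WT, and Mlkl there differed from WT by 0.07 ± 0.12 on the log2 scale. The 24 genes differed from WT there by 0.07 (Trim25) to 1.46, with a median of 0.76. Mlkl was also below the list median in Tfam+/- against WT, at 0.63 against 2.63. Whether Mlkl departs from the list was not tested. The summed level of the 13 leukocyte markers was 4910 and 4879 (WT), 6094 and 5669 (Tfam+/-), 3173 and 2843 (Zbp1-/-), and 2525 and 2489 (Tfam+/-Zbp1-/-). Of the 11 leukocyte markers tested, 9 were called lower in Tfam+/-Zbp1-/- against Tfam+/- and all 11 were below 0 (median -1.19), while 0 were called in Tfam+/- against WT (5 at an unadjusted p under 0.05 in limma). The shared term gave 11 and 5 calls in these 2 comparisons, where it called 45.6% and 15.6% of all genes. Of the 4 epithelial markers, the 2 tested, Krt8 (-1.19) and Krt18 (-1.64), were also called lower in Tfam+/-Zbp1-/- against Tfam+/-. The other 2, under 10 in every library and untested, read higher there, not lower. Epcam was at 3.85 and 2.99 normalized counts in the double mutant, against 1.07 and 0. For Cdh1 the values were 2.84 and 2.95, against 0 and 1.99. The leukocyte sum in Zbp1-/- was below that in WT, while Mlkl was at the same level in both. The part of the interferon response, or of leukocyte or epithelial RNA, in the Zbp1 and Mlkl results was not tested.

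**Figure D2:**
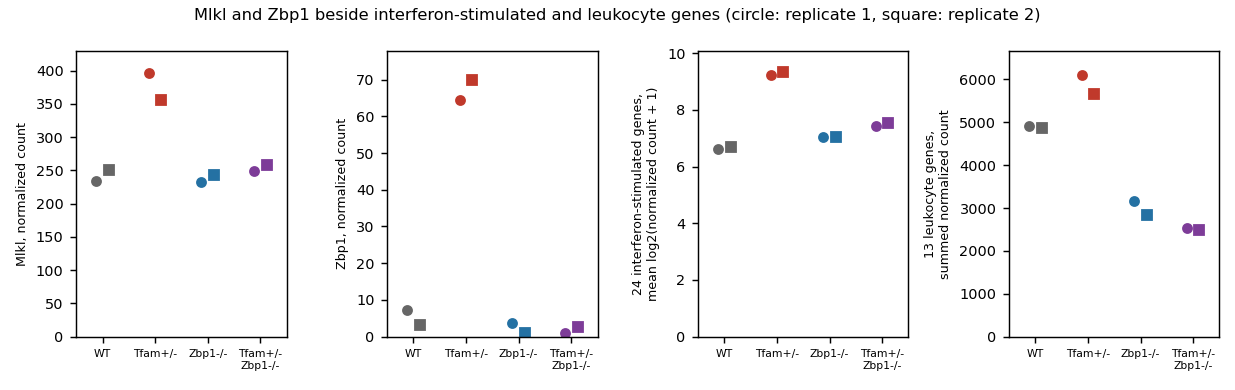
Mlkl and Zbp1 (normalized counts), the mean log2 level of 24 interferon-stimulated genes and the summed normalized count of 13 leukocyte markers in each library, by genotype, with circles for replicate 1 and squares for replicate 2. All 4 measures were highest in Tfam+/-. The leukocyte sum was below WT in both genotypes without Zbp1, and Mlkl there was at 233 to 258.

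Ripk3, the kinase that phosphorylates MLKL, was highest in 1 library of each single mutant. It stood at 1283 and 1273 normalized counts (WT), 1942 and 1424 (Tfam+/-), 1376 and 1882 (Zbp1-/-), and 1298 and 1202 (Tfam+/-Zbp1-/-). The 2 highest values, 1942 and 1882, were those of the pair of libraries that stood apart, and each was well above its own replicate. Against WT, the difference was 0.38 ± 0.20 in Tfam+/- and 0.33 ± 0.20 in Zbp1-/- (limma adjusted p = 0.559 and 0.366). In the fit with the shared term the Tfam+/- difference was 0.15 (limma adjusted p = 0.0392), and in the other 6 libraries it was 0.16 (adjusted p = 0.0645). The shared term itself was 0.45 ± 0.04 for Ripk3. The median size of that term over all tested genes was 0.33, and 75% of genes were under 0.51.

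Ripk1 was low where Ripk3 was high. This kinase, a scaffold for survival signalling as well as for death, read 1323 and 1316 (WT), 1079 and 1243 (Tfam+/-), 1486 and 1205 (Zbp1-/-), and 1382 and 1367 (Tfam+/-Zbp1-/-). The lowest value of each single mutant was that of the pair that stood apart. The difference between Tfam+/- and WT was -0.19 ± 0.13 (limma adjusted p = 0.559), with an interval from -0.51 to 0.13 on the log2 scale. Over the 8 libraries Ripk1 and Ripk3 had a Pearson r of -0.80, and over the 6 without that pair an r of -0.13; these share libraries and are a description only.

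**Figure D3:**
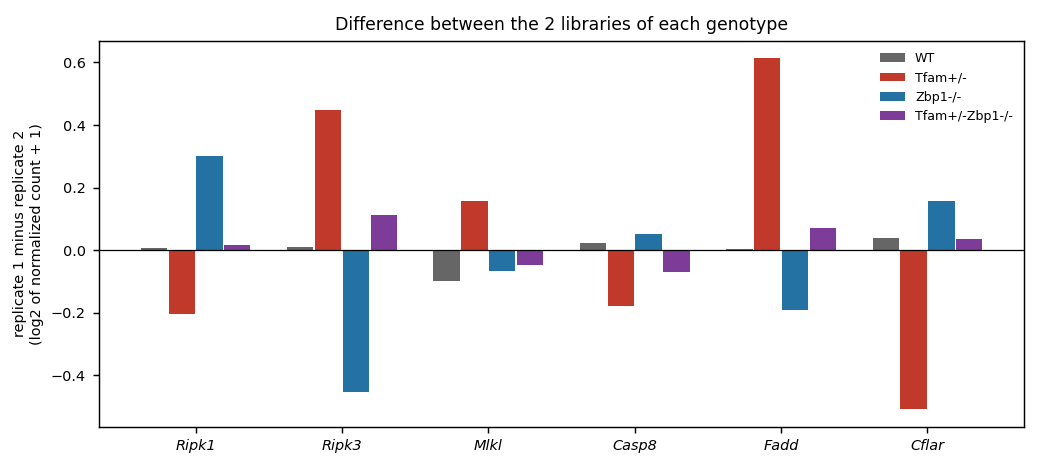
Difference between replicate 1 and replicate 2 of each genotype (log2 of normalized count + 1) for the 6 partner genes; each bar is 1 genotype. Ripk3 differed by 0.45 in Tfam+/- and by -0.45 in Zbp1-/-, opposite signs because the library that stood apart is replicate 1 in the first and replicate 2 in the second, and Ripk1 and Cflar show the reverse signs.

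In the caspase-8 arm no gene was called in any comparison with all 8 libraries and no shared term. Casp8, the initiator caspase, had the narrowest range of the 7, reading 780 and 767 (WT), 806 and 912 (Tfam+/-), 794 and 766 (Zbp1-/-), and 790 and 828 (Tfam+/-Zbp1-/-). Its highest over its lowest library was 1.19, against 1.70 for Mlkl. The ratio was 81.1 for Zbp1, whose lowest value, 0.862, is from a Tfam+/-Zbp1-/- library, where the gene is deleted. Tfam+/- against WT differed by 0.15 ± 0.11 (limma adjusted p = 0.559), an interval of -0.11 to 0.41. With the shared term the difference was 0.21 and in the other 6 libraries 0.24, and both were called (limma adjusted p = 0.0253 and 0.0143).

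Fadd, the adaptor that brings caspase-8 to the complex, stood at 211 and 210 (WT), 292 and 191 (Tfam+/-), 213 and 243 (Zbp1-/-), and 229 and 218 (Tfam+/-Zbp1-/-). The Tfam+/- libraries held both its highest and its lowest value, and their gap of 0.61 log2 units was wider than any of its pairwise differences between genotypes. Cflar, the inhibitor of caspase-8, read 1591 and 1547 (WT), 1249 and 1776 (Tfam+/-), 1403 and 1258 (Zbp1-/-), and 1447 and 1411 (Tfam+/-Zbp1-/-). It too had its highest and lowest values in Tfam+/-. The signs of the Tfam+/- differences of both genes, 0.16 ± 0.21 for Fadd and -0.07 ± 0.17 for Cflar, turned in the other 6 libraries, to -0.14 and 0.18. No direction is given for either gene in this comparison.

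Counted together, 0 of the 7 genes were called in Tfam+/- against WT, where 0.731% of all tested genes were called by limma; 2 (Zbp1 and Mlkl) had an unadjusted p under 0.05, as had 8.74% of all genes. In Tfam+/-Zbp1-/- against Tfam+/-, 2 of 7 were called, both lower (Zbp1 and Mlkl), against a background of 5.64% called in either direction and 2.32% called lower. Zbp1 is deleted in Tfam+/-Zbp1-/-, and that cannot be told apart from a lower interferon response in its call. Zbp1 also passed the filter on low values only through Tfam+/-, so its place in these counts is no support. Mlkl was the only partner called. For Zbp1-/- against WT the count was 0 (background 1.06%, and 0 members at an unadjusted p under 0.05 in limma, against 19.7% of all genes). The largest differences there were -0.92 for Zbp1, 0.33 for Ripk3 and -0.24 for Cflar. For Tfam+/-Zbp1-/- against WT it was 0 (background 1.38%, 0 members unadjusted against 12.6% of all genes). The 95% intervals for the 6 partners reached no further than -0.54 and 0.58 on the log2 scale. For Tfam+/-Zbp1-/- against Zbp1-/- it was 0 (background 0.415%, 0 members unadjusted against 12.3%), with Ripk3 at -0.37 ± 0.20 and Mlkl at 0.09 ± 0.12. The interaction called 0 (background 0.663%), while 3 members, against 16% of all genes, had an unadjusted p under 0.05 in limma: Zbp1 (-3.78 ± 0.85), Mlkl and Ripk3 (-0.74 ± 0.28). The Zbp1 value in the interaction holds the deletion of the gene itself. Comparisons that share a genotype share its libraries and are not independent of each other.

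With the shared term, 4 of 7 were called in Tfam+/- against WT, all higher (Zbp1, Mlkl, Casp8 and Ripk3). In that comparison 15.6% of all genes were called and 7.39% called higher. Zbp1 passed the filter on low values only through the Tfam+/- libraries, so its calls in this paragraph are no support for a shift of the 7 genes. In Tfam+/-Zbp1-/- against Tfam+/-, 5 of 7 were called with that term, against a background of 45.6%, so calls were common among all genes. Zbp1, which is deleted in Tfam+/-Zbp1-/-, Mlkl, Cflar (-0.23) and Ripk3 (-0.19) were lower and Ripk1 (0.12) higher. In the interaction, Zbp1 (-4.45, a value that holds its own deletion) and Ripk3 (-0.29) were called with it (background 16.9%). In Zbp1-/- against WT it called Ripk1 (0.15; background 35.6%), in Tfam+/-Zbp1-/- against Zbp1-/- it called Ripk3 (-0.14; background 23.8%), and in Tfam+/-Zbp1-/- against WT it called 0 (background 42.5%). The other 6 libraries called 4, 6 and 2 members in the first 3 of these comparisons, where they called 15.4%, 43.6% and 19.1% of all genes. They called 2, 0 and 1 in the last 3, against 34.3%, 23.4% and 44.8%. The term was fitted because that pair of libraries had been seen to deviate in these data, so its estimates are not independent of them.

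**Figure D4:**
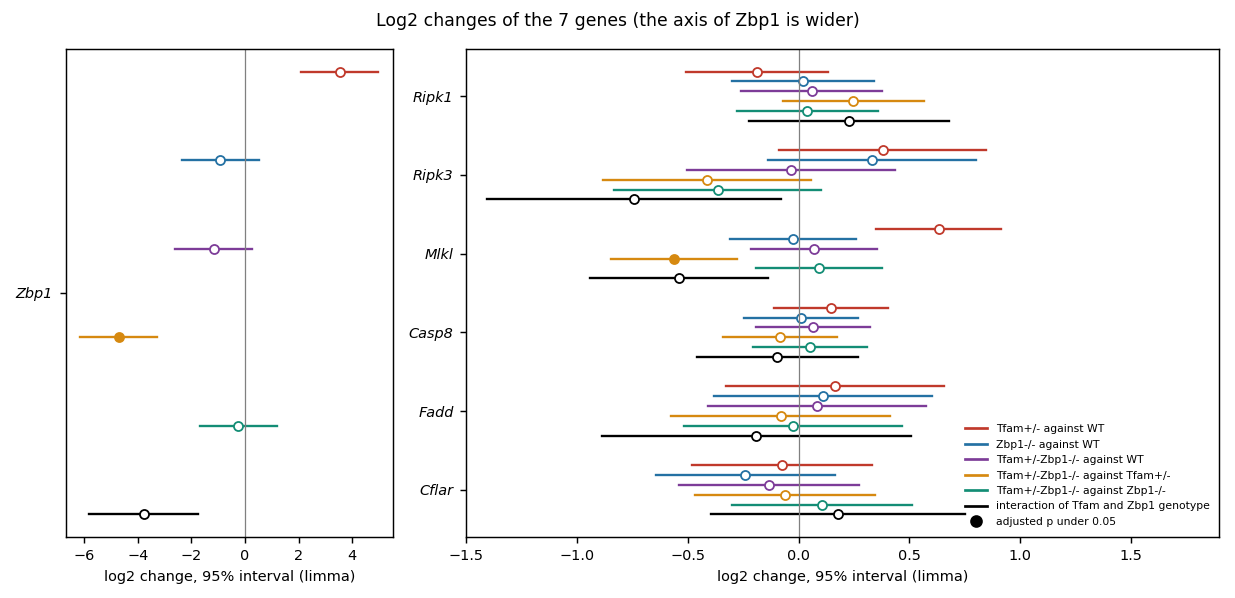
Log2 differences of the 7 genes in the 5 pairwise comparisons and the interaction, from limma over all 8 libraries, as points with 95% intervals; filled points have an adjusted p under 0.05, and the axis of Zbp1 is wider than that of the other 6. Only Zbp1 (-4.70) and Mlkl (-0.56) in Tfam+/-Zbp1-/- against Tfam+/- are filled.

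Beyond the 7 genes, 5 lists of the surrounding pathway held 1 called gene in the fit over all 8 libraries without the shared term, and more with it. The RHIM and Z-nucleic acid partners were 4 genes and none was called in Tfam+/- against WT, where 1 had an unadjusted p under 0.05 in limma. That gene was Adar, which edits double-stranded RNA and carries a Z-binding domain in its interferon-induced form. It read 727 and 707 (WT), 1717 and 1376 (Tfam+/-), 800 and 1080 (Zbp1-/-), and 897 and 899 (Tfam+/-Zbp1-/-). Its difference of 1.10 ± 0.17 in Tfam+/- against WT just missed the threshold (limma adjusted p = 0.0538), as did -0.77 ± 0.17 in Tfam+/-Zbp1-/- against Tfam+/- (adjusted p = 0.0526). Both were called with the shared term, at 0.91 and -0.59. Ticam1, the RHIM adaptor of Toll-like receptors 3 and 4, read 310 and 333 (WT), 437 and 293 (Tfam+/-), 387 and 484 (Zbp1-/-), and 358 and 391 (Tfam+/-Zbp1-/-), and differed from WT by 0.15 ± 0.21 in Tfam+/- (adjusted p = 0.694).

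The list of death ligands and receptors also holds adaptors and inhibitors of apoptosis that act with the receptors. Of its 11 genes, 8 were abundant enough to test. The ligand genes Tnf (3.29 to 14.5 normalized counts), Tnfsf10 (0 to 5.25) and Fasl (0 to 1.10) were not. None of the 8 was called in Tfam+/- against WT (median log2 difference 0.04, 0 unadjusted in limma) or in Tfam+/-Zbp1-/- against Tfam+/- (median 0.16, 2 unadjusted). The list called checks on RIPK1 holds 16 genes that regulate RIPK1 signalling through ubiquitin or phosphate, not all of them as restraints. Of these, 0 were called in Tfam+/- against WT (2 unadjusted in limma) and 1 in Tfam+/-Zbp1-/- against Tfam+/-. This was Tnfaip3, the gene of the ubiquitin-editing enzyme A20, which read 133 and 112 (WT), 164 and 183 (Tfam+/-), 107 and 109 (Zbp1-/-), and 107 and 102 (Tfam+/-Zbp1-/-). Both Tfam+/- libraries were above the 6 others. Over all tested genes, 23.3% had both Tfam+/- libraries above both WT libraries, and 13.5% had both Tfam+/-Zbp1-/- libraries below both Tfam+/- libraries. Tnfaip3 fell by 0.73 ± 0.15 on the log2 scale in Tfam+/-Zbp1-/- against Tfam+/- (adjusted p = 0.0385 in limma). The shared term gave -0.76 (limma adjusted p = 4.67e-04).

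None of the 11 tested MLKL helpers and membrane repair genes was called in either comparison (medians 0.06 and 0.04; 0 and 1 unadjusted in limma). The same held for the 14 caspase-8 targets and genes of mitochondrial apoptosis (medians 0.04 and 0.14; 1 and 2 unadjusted). The median over all tested genes was -0.01 in Tfam+/- against WT and 0.14 in Tfam+/-Zbp1-/- against Tfam+/-. In Zbp1-/- against WT, Tfam+/-Zbp1-/- against WT and Tfam+/-Zbp1-/- against Zbp1-/-, no gene of the 5 lists was called in that fit.

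The fit with the shared term called 45.6% of all genes in Tfam+/-Zbp1-/- against Tfam+/-. It called 3 of 4 RHIM and Z-nucleic acid partners there. On the list of death ligands and receptors it called 7 of 8 tested genes (6 higher), none of them a ligand. Of the checks on RIPK1 it called 4 of 16. The counts were 4 of 11 for MLKL helpers and 9 of 14 for caspase-8 targets and apoptosis genes (7 higher). The other 6 libraries called 3, 6, 4, 5 and 7 of these lists in the same order, with a background of 43.6%. In Tfam+/- against WT the shared term called 2, 2 (both lower), 2, 3 and 3 genes of the 5 lists, and the other 6 libraries 2, 2, 2, 2 and 5, against backgrounds of 15.6% and 15.4%.

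**Figure D5:**
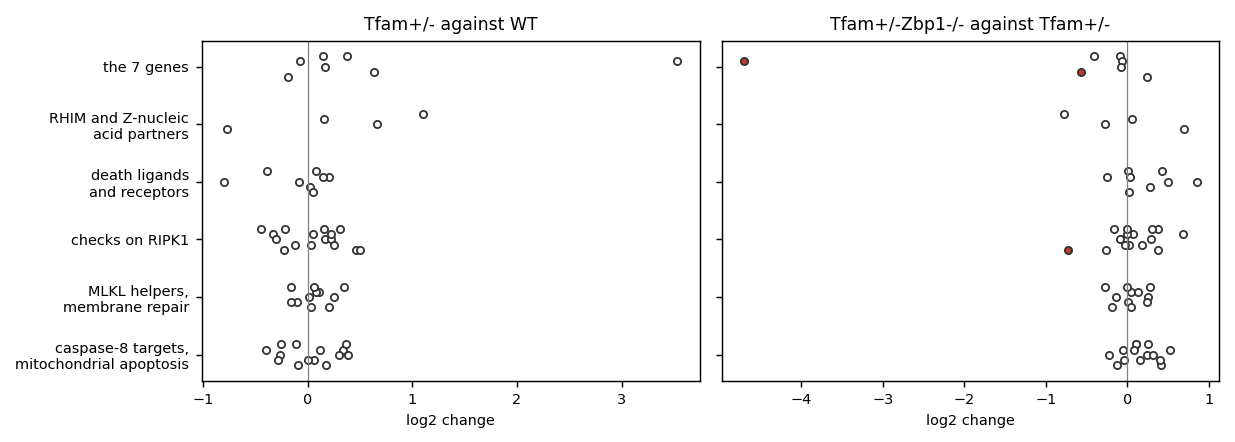
Log2 differences of the 7 genes and of the tested genes of 5 pathway lists in Tfam+/- against WT and in Tfam+/-Zbp1-/- against Tfam+/-; each point is 1 gene, red where the limma adjusted p was under 0.05. Most pathway genes lie within 0.5 of 0; the red points are Zbp1 and Mlkl among the 7 and Tnfaip3 among the checks on RIPK1, all in the second comparison.

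For each member, the 3 tested genes with the highest Pearson r over the 8 libraries (log2 of normalized count + 1) were taken as its closest patterns, a description with no test, since all pairs share libraries and scaling. For Zbp1 these were Slfn8 (r = 0.989), Slfn2 (0.987) and Map2k1 (0.976), and 60 genes had an r over 0.9. Slfn8 read 35.8 and 22.8 normalized counts (WT), 105 and 149 (Tfam+/-), 24.9 and 19.4 (Zbp1-/-), and 13.7 and 24.4 (Tfam+/-Zbp1-/-). Slfn2 and Slfn8 belong to the interferon-inducible Schlafen family. For Mlkl they were Irgm1 (0.978), Bst2 (0.974) and Helz2 (0.973), with 99 genes over 0.9. Irgm1, an interferon-induced GTPase, read 700 and 673 (WT), 2513 and 2668 (Tfam+/-), 683 and 720 (Zbp1-/-), and 797 and 828 (Tfam+/-Zbp1-/-). Bst2, which tethers budding virus, read 277 and 276, 2357 and 1752, 358 and 443, and 440 and 472 in the same order. Like Mlkl, by whose pattern they were picked, both were highest in the Tfam+/- libraries, with no overlap with any other genotype. Of all tested genes, 23.3% had both Tfam+/- libraries above both WT libraries, and the share above all 6 others was not computed. Zbp1 and Mlkl had an r of 0.89 with each other, the highest of Zbp1 with any member. Over the 6 libraries without the pair that stood apart it was 0.83, below the 0.88 of Zbp1 with Cflar.

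The other members had other neighbours. Ripk3 was closest to Tln1 (0.994), Ppp1r18 (0.993) and Hmox1 (0.993), with 403 genes over 0.9. Hmox1, the heme-degrading stress enzyme, read 1514 and 1484 (WT), 2063 and 1641 (Tfam+/-), 1642 and 2067 (Zbp1-/-), and 1546 and 1483 (Tfam+/-Zbp1-/-), high in the same pair of libraries as Ripk3. Ripk1 was closest to Fam174a (0.994), Cdh11 (0.992) and Ulk2 (0.991), with 943 genes over 0.9. Cdh11, a mesenchymal cadherin, read 10511 and 14837 in that pair, against 15739 to 23050 in the other 6 libraries. Casp8 was closest to Pitrm1 (0.951), Traf3 (0.949) and F830016B08Rik (0.937), with 13 genes over 0.9. Fadd was closest to Rnf113a1 (0.983), Ccdc137 (0.978) and Pim3 (0.972), and Cflar to Hbs1l (0.965), Pms2 (0.957) and Tstd3 (0.956). Fadd and Cflar, which are highest and lowest in opposite Tfam+/- libraries, had an r of -0.86 with each other.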

How the data were processed

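The deposited table gives 1 value per gene and library, a signal that the authors call normalized counts. Per the labels and the submitters' processing notes, reads were aligned to mm10 (RefSeq) with STAR 2.6.1a within RNAseq Alignment 2.0.0, and RNA-seq Differential Expression 1.0.0 and Salmon are also named. The sources used here do not say how the values were scaled. Between 22.2% and 34.9% of low values per library came out as whole reads (tolerance 0.01), so count models were not run. limma 3.58.1 (R 4.3.3) was fitted to log2(normalized count + 1) over all 8 libraries, for genes with a mean of at least 10, with a mean-variance trend. With 2 libraries against 2, an exact permutation test cannot go below p = 0.333, so only the fit across genes was tested. The members, the gene lists and the shared term were chosen with earlier results of these data known. Named genes are the members, Tfam, the 3 most similar genes per member, called list genes, and Ticam1 and Adar; examples of markers and the ligands left untested were named after their values were seen. Of the table's gene names, 97.7% matched RefSeq GRCm38.p6. Totals per library limit the precision; no count intervals were computed because the values are not reads.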

Additional observations from a re-analysis of the deposited data

How the results depend on the processing

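The number of the 7 genes called moved with these settings. In Tfam+/- against WT it went from 0 to 1 with 5 added before logs, 4 with the shared term and 4 in the other 6 libraries. In Zbp1-/- against WT it went from 0 to 1 with the shared term and 2 in the other 6 libraries. In Tfam+/-Zbp1-/- against WT it went from 0 to 1 (Cflar, -0.13) in the other 6 libraries, with only the genotypes compared, and with crossed replicate numbers, a setting added after seeing the data. In Tfam+/-Zbp1-/- against Tfam+/- it went from 2 to 1 with no filter, with a mean of at least 50 (where Zbp1 is not tested) and with only the genotypes compared, and to 5 with the shared term, 6 in the other 6 libraries and 0 to 1 when leaving out each library. In Tfam+/-Zbp1-/- against Zbp1-/- it went from 0 to 1 with the shared term, and in the interaction from 0 to 2 with it and 2 in the other 6 libraries.

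With the replicate number as a block, 1 member (Zbp1) was called in Tfam+/-Zbp1-/- against Tfam+/-, with Mlkl at an adjusted p of 0.131, and no other count of called members changed; in the interaction, members at an unadjusted p under 0.05 went from 3 to 2. The correlation of same-numbered libraries was -0.698 for Tfam+/- with Zbp1-/- and -0.366 for WT with Tfam+/-Zbp1-/-, so the numbers do not pair the samples. The crossed numbers called 6211 of all genes in Tfam+/-Zbp1-/- against WT.

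Signs that turned all belonged to differences that were not called with all 8 libraries and no added term; Cflar in Tfam+/- against WT was called higher in the other 6 libraries. Trimmed-mean scaling of the libraries (TMM) took the median of all genes from 0.11 to 0.0058 in Zbp1-/- against WT and from 0.12 to 0.0018 in Tfam+/-Zbp1-/- against WT. It turned Ripk1 to -0.082 and Casp8 to -0.089 in the first, and Ripk1 to -0.061, Mlkl to -0.050, Casp8 to -0.055 and Fadd to -0.036 in the second. With the shared term, Fadd turned to -0.037 and Cflar to 0.091 in Tfam+/- against WT, Fadd to -0.092 in Zbp1-/- against WT, and Fadd to 0.12 in Tfam+/-Zbp1-/- against Tfam+/-. Against Zbp1-/-, Tfam+/-Zbp1-/- turned for Ripk1 (-0.088), Casp8 (-0.0049), Fadd (0.18) and Cflar (-0.061) with that term, and for Ripk1 (-0.11) and Fadd (0.070) in the other 6 libraries. In the other 6 libraries Fadd was -0.14 and Cflar 0.18 in Tfam+/- against WT, and Fadd 0.23 in Tfam+/-Zbp1-/- against Tfam+/-. Both settings gave interactions of -0.026 for Ripk1, 0.21 for Fadd and -0.15 for Cflar. The causes were not tested.

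Leaving out each library in turn gave -0.14 to 0.47 for Fadd and -0.33 to 0.18 for Cflar in Tfam+/- against WT. In Zbp1-/- against WT it gave -0.13 to 0.17 for Ripk1, -0.073 to 0.026 for Mlkl and -0.013 to 0.038 for Casp8. In Tfam+/-Zbp1-/- it gave -0.089 to 0.022 for Ripk3 against WT; against Tfam+/-, -0.17 to 0.0058 for Casp8, -0.39 to 0.23 for Fadd and -0.31 to 0.19 for Cflar. Against Zbp1-/- it gave -0.87 to 0.37 for Zbp1, -0.11 to 0.19 for Ripk1 and -0.12 to 0.070 for Fadd, and in the interaction -0.50 to 0.12 for Fadd and -0.074 to 0.43 for Cflar. Where a genotype keeps 1 library, that library is assumed to vary like the other genotypes. Of the alternatives' values for single genes, 669 stayed on the same side of the threshold with the same sign, 26 passed it newly, 13 no longer passed it and 42 changed sign. Count models on recovered reads were not run.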
